A study of Mus musculus with 10 samples.

Results

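The 37 genes of the mouse mitochondrial genome were examined in RNA-seq gene counts of sorted pancreatic beta cells. They were chosen by name, as every gene whose symbol starts with mt-, and made up 37 of the 56748 gene identifiers in the tables. They comprised 13 protein genes, 2 ribosomal RNA genes and 22 transfer RNA genes. The cells were taken from pancreatic islets of NOD males, 6 to 8 weeks of age. NOD mice are inbred and become diabetic through autoimmunity, and no genetic change beyond the strain is named. Intact islets were left untreated (5 libraries, numbered 1 to 5) or were exposed for 48 hours to 50 ng/ml lipopolysaccharide (LPS), an outer membrane component of Gram-negative bacteria sensed by the receptor TLR4 (5 libraries, numbered 6 to 10). Both groups were then dispersed with trypsin, and beta cells were collected by fluorescence-activated sorting. LPS therefore acted on whole islets, with their non-beta cells present. The design text calls the samples of a group independent, but the animals behind each library, and any pooling of them, are not named. The labels do not give the culture time of the untreated islets.

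Mitochondria keep a small circular genome of their own. It encodes core subunits of 4 respiratory chain and ATP synthase complexes, together with the ribosomal and transfer RNAs needed to translate them, while all other mitochondrial proteins come from nuclear genes. Each strand is transcribed as a long precursor by a dedicated RNA polymerase, and the transfer RNAs that lie between the other genes are cut out to release them. In beta cells, oxidative phosphorylation couples glucose metabolism to insulin release, so these transcripts belong to the machinery of glucose sensing.

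Library depth bounded what could be seen. Counts assigned to genes ran from 18465188 to 27379892 per library, and values are given as CPM, counts scaled to a common library total. A gene with 0 counts throughout a group could still have a level of up to 0.0246 CPM in the untreated and 0.0269 CPM in the LPS group, a limit of 3 counts that covers counting error only. The beta cell label was checked with a marker list of 8 genes, whose summed level was 101567 to 134681 CPM in every library. Ins1 and Ins2, the insulin genes, made up most of this sum, at 8.56% to 11.8% of gene counts. The sum therefore says little about the other markers. Ptprc, which marks white blood cells, and Cd3e, which marks T cells, had 0 counts in all libraries, whereas hormone genes of other islet cells (Gcg, Sst and Ppy) were present. One library stood apart: LPS 8 had far fewer counts on nuclear pseudogenes that copy mitochondrial sequence, and results are therefore also given without it where they change.

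Nuclear pseudogenes that carry mitochondrial sequence matter for how the counts are read. The deposited tables set apart reads that aligned to more than 1 place, so a stretch shared between the mitochondrion and the nucleus can lose counts from the gene. In transcript sequences of the mouse build GRCm38 (GENCODE M21, matched by gene identifier, since the files name GRCm39), 17 nuclear transcripts matched 11 of the 13 protein genes over at least 100 bases at 90% identity or more. A block of 7 of these lies on chromosome 1, between positions 24611535 and 24616197 of GRCm38. Gm10925 matched mt-Atp6 over 678 bases, Gm28661 matched mt-Co2 over 681 bases and Gm28437 matched mt-Co3 over 783 bases, each at 100% identity. The block copy of mt-Nd3, Gm28438, differed from it at a single base over 345 bases, and the pair is shown to make visible how little separates a mitochondrial from a nuclear read. Capitals mark the base that differs, T3C, counted from the first base of the mitochondrial gene.
mt-Nd3: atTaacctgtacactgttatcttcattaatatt
Gm28438: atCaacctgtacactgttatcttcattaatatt

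The chromosome 1 copy of mt-Co1, Gm29216, covers 483 of its 1545 bases and differed only at A1066T, counted in the same way. Capitals mark that base.
mt-Co1: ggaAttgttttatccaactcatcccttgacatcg
Gm29216: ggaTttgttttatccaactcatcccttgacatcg

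The chromosome 2 copy, Gm13340, covers all 1545 bases of mt-Co1 at 97.6% identity, with 37 mismatches. A stretch holding 4 of them (G696A, T699C, G717A and C720T) shows the contrast with the near-perfect copies. Capitals mark the mismatched bases.
mt-Co1: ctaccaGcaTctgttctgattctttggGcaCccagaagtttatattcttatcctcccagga
Gm13340: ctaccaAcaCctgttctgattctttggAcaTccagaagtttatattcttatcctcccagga

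The share of each mitochondrial gene that cannot be told from a nuclear transcript followed from these matches. Of all windows of 100 bases, 99.5% in mt-Co2, 99.5% in mt-Atp6, 99.9% in mt-Co3, 97.6% in mt-Nd3 and 98.5% in mt-Nd4l stood without change in another transcript. The share was 60.8% in mt-Nd4, 30.8% in mt-Co1 and 3.20% in mt-Nd2. It was 0 in mt-Nd1, mt-Nd5, mt-Nd6, mt-Cytb, mt-Atp8 and both ribosomal RNA genes. Only annotated transcripts were searched, and nuclear sequence outside them was not covered. The length of the reads is unknown here. With windows of 50 to 150 bases the share stayed at 97.0% or more in the same 5 genes.

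Mitochondrial genes took 2.00% to 3.22% of gene counts in untreated and 1.73% to 2.88% in LPS libraries. The mean share was 2.53 ± 0.581% without and 2.11 ± 0.475% with LPS (SD over 5 libraries each), and the groups overlapped. Protein genes held 98.5% of all mitochondrial counts, ribosomal RNAs 1.48% and transfer RNAs 0.0126%. The labels call the molecule total RNA and give no library kit, so how each RNA class was captured cannot be told. The 3 genes mt-Co1, mt-Cytb and mt-Nd5 together held 79.4% of the mitochondrial counts. In bulk RNA of a sorted population, fewer cells of a type and less RNA per cell cannot be told apart.

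Across the 16 mitochondrial genes with enough counts to be tested (2 ribosomal RNA, 12 protein and 2 transfer RNA genes), none was called by edgeR's quasi-likelihood test at a Benjamini-Hochberg adjusted p under 0.05, against 3.77% of all 15942 genes tested. By direction, 2.84% of all genes tested were called higher and 0.928% lower. At an unadjusted p under 0.05 there were 2 of 16, both ribosomal RNAs, against 15.3% of all genes tested. DESeq2 called 1 of them, mt-Rnr2, against 6.12% of all genes, and limma-voom called 0, against 3.64%. The fitted log2 fold change was below 0 in 14 of the 16, against 52.1% of all genes tested, with a median of -0.25 against -0.01. These genes share libraries and precursors and moved together, so their directions are not separate pieces of evidence. No mitochondrial gene had groups that did not overlap, against 5.76% of all genes tested.

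**Figure D1:**
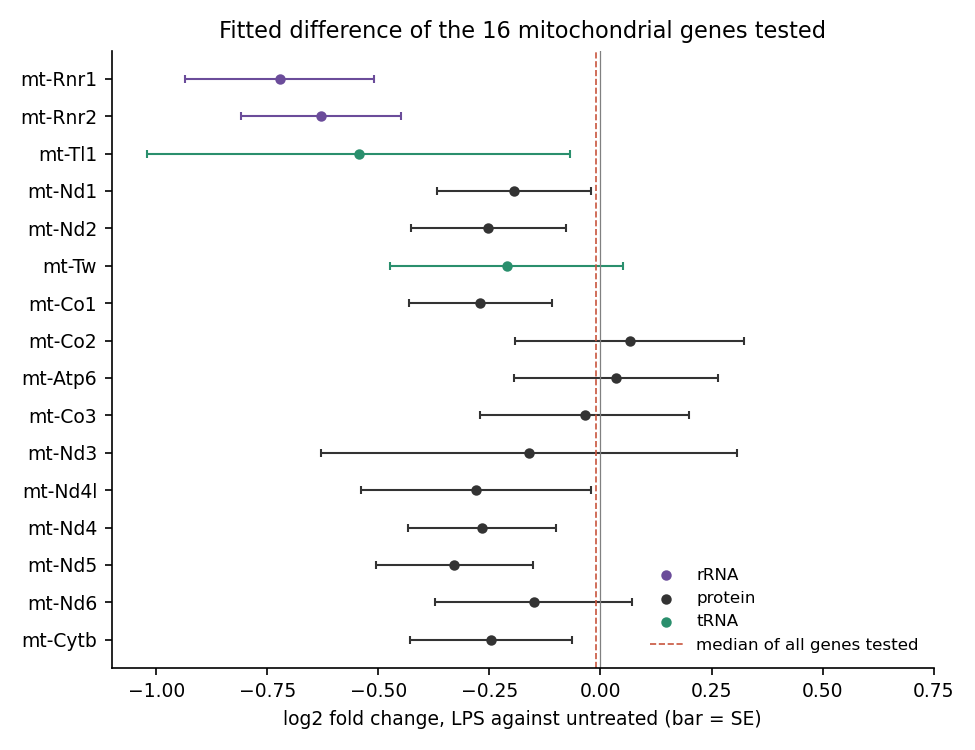
Fitted log2 fold change of LPS against untreated libraries (horizontal axis; bars are 1 SE) for the 16 mitochondrial genes tested, in map order. The 2 ribosomal RNAs lie furthest below 0 (-0.72 and -0.63), most mRNAs lie between -0.33 and -0.04, and mt-Co2 (0.07) and mt-Atp6 (0.04) lie just above 0.

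The 2 ribosomal RNAs form the RNA core of the mitochondrial ribosome and are the first genes transcribed from the heavy-strand promoter region. mt-Rnr1, the small-subunit RNA (chrM:70-1024 in GRCm38, 955 bases), stood at 120, 94.99, 91.0, 206 and 133 CPM in untreated libraries 1 to 5. It stood at 69.6, 64.0, 68.6, 80.04 and 111 CPM in LPS libraries 6 to 10. The 4 lowest LPS libraries were below every untreated library, and LPS 10 lay among the untreated ones. The group means were 129 ± 46.3 and 78.6 ± 19.0 CPM (SD over 5 libraries each). The fitted log2 difference, -0.72 ± 0.21 (SE), missed the threshold (edgeR adjusted p = 0.0902, unadjusted 0.00464).

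mt-Rnr2, the large-subunit RNA (chrM:1094-2675, 1582 bases), showed the same arrangement at a higher level. It stood at 262, 238, 211, 451 and 307 CPM in untreated libraries and at 189, 164, 173, 186 and 242 CPM in LPS libraries. Again only LPS 10 reached into the untreated range. The log2 fold change was -0.63 ± 0.18 (edgeR adjusted p = 0.0789, unadjusted 0.00383). Whether mt-Rnr2 passed depended on the fit: DESeq2 gave an adjusted p of 0.0122, and edgeR without the low-count filter gave 0.0111, with mt-Rnr1 at 0.0115 in the latter. Without LPS 10, edgeR called both (adjusted p = 0.0332 for mt-Rnr1 and 0.0492 for mt-Rnr2), and without untreated 3 it called mt-Rnr2 (0.0455). Without untreated 4, whose ribosomal RNA levels were the highest, the log2 fold changes were -0.49 (adjusted p = 0.191) and -0.42 (0.141).

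**Figure D2:**
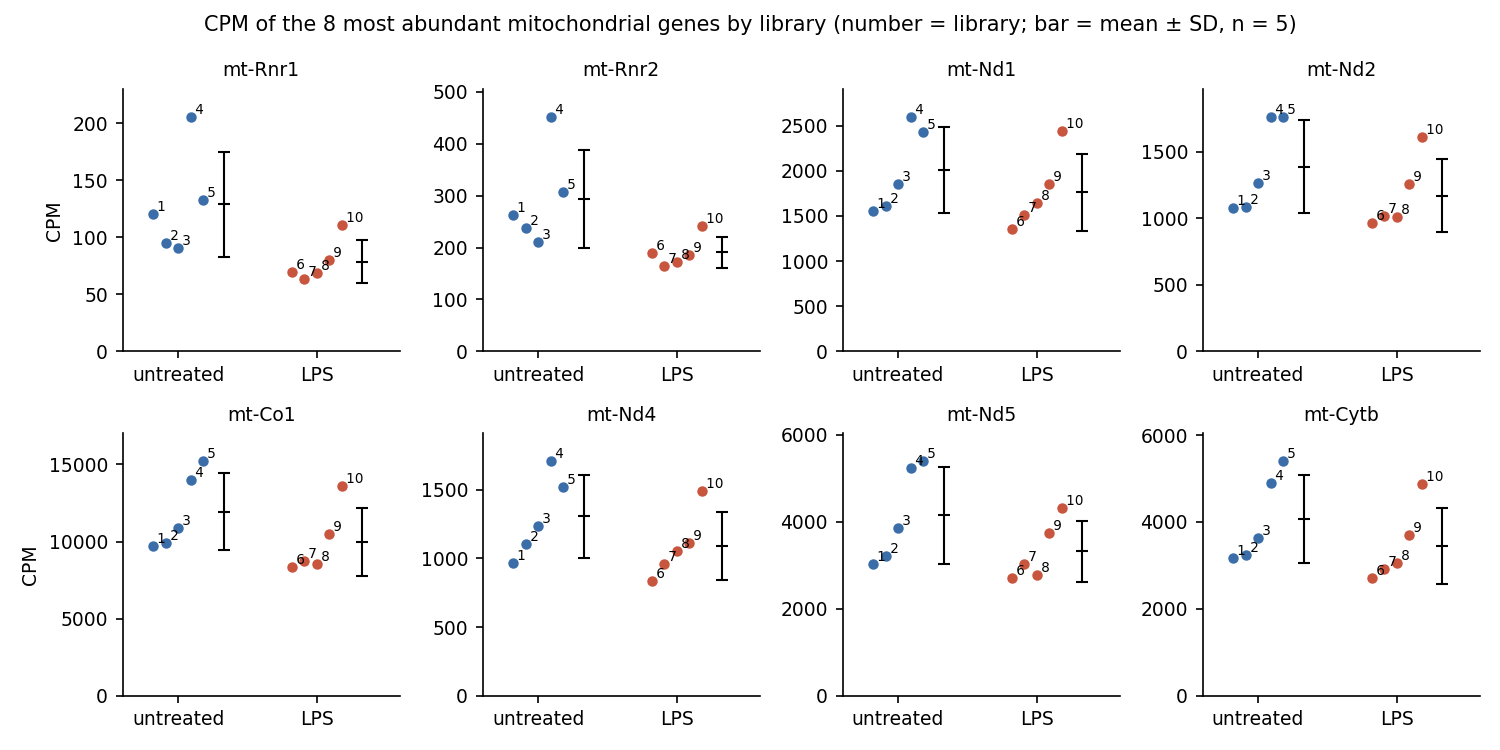
CPM of the 8 most abundant mitochondrial genes (vertical axes, from 0) in each untreated and LPS library. Points carry the library number and are spread sideways only to separate them, and bars give the mean ± SD of 5 libraries. Libraries 4 and 5 stand highest among the untreated and library 10 among the LPS libraries in all 8 genes.

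Complex I, NADH dehydrogenase, takes electrons from NADH and draws 7 subunits from the mitochondrial genome. Of these, mt-Nd5, a proton-pumping membrane subunit (chrM:11742-13565), had the most counts. It stood at 3024, 3223, 3849, 5240 and 5391 CPM in untreated and at 2718, 3025, 2784, 3743 and 4317 CPM in LPS libraries. The groups overlapped widely, and the log2 fold change of -0.33 ± 0.18 did not pass (edgeR adjusted p = 0.420). mt-Nd1, which helps to form the quinone-binding part (chrM:2751-3707), had means of 2006 ± 476 CPM in untreated and 1761 ± 424 CPM with LPS (SD, n = 5 each). mt-Nd2, a further membrane subunit (chrM:3914-4951), had means of 1388 ± 347 and 1171 ± 271 CPM. mt-Nd4, likewise a proton-pumping subunit (chrM:10167-11544), had means of 1306 ± 303 and 1091 ± 247 CPM. None of these 3 passed, with log2 fold changes of -0.20, -0.25 and -0.27.

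The remaining complex I genes were far lower. mt-Nd6 (chrM:13552-14070), the only protein gene read from the other strand, stood at 4.09 to 7.92 CPM in untreated and 3.15 to 7.20 CPM in LPS libraries. mt-Nd4l (chrM:9877-10173) stood at 2.53 to 4.57 and 1.69 to 4.17 CPM. Since the use of strand in counting is not stated, reads from the heavy-strand precursor opposite mt-Nd6 cannot be told apart from its own. mt-Nd3 (chrM:9459-9806), with 114 counts over all libraries, stood at 0.191 to 0.774 and 0.145 to 0.908 CPM. All 3 had overlapping groups, and none passed the test.

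Complex III, which passes electrons from quinol to cytochrome c, has a single mitochondrial subunit. Its gene, mt-Cytb (chrM:14145-15288), encodes cytochrome b. It stood at 3176, 3244, 3622, 4901 and 5393 CPM in untreated and at 2702, 2927, 3047, 3691 and 4872 CPM in LPS libraries. LPS 6 to 8 lay below all untreated libraries, but LPS 9 and 10 did not, and the log2 fold change was -0.25 ± 0.18 (edgeR adjusted p = 0.589).

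Complex IV, cytochrome c oxidase, reduces oxygen and has its 3 catalytic core subunits encoded in the mitochondrion. mt-Co1 (chrM:5328-6872), the subunit that holds the oxygen-binding site, was the most abundant mitochondrial gene and ranked 4 among all genes by mean CPM. It stood at 9739, 9899, 10875, 13977 and 15200 CPM in untreated and at 8377, 8719, 8550, 10506 and 13588 CPM in LPS libraries. LPS 6, 7 and 8 were below all untreated libraries, LPS 9 fell among them and LPS 10 exceeded untreated 1 to 3. The log2 fold change was -0.27 ± 0.16 (edgeR adjusted p = 0.474).

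mt-Co2 (chrM:7013-7696), which receives electrons from cytochrome c, stood at 15.1, 20.1, 18.1, 25.1 and 22.4 CPM in untreated libraries. Its LPS values of 11.98, 18.9, 13.4, 24.7 and 36.9 CPM enclosed that range. mt-Co3 (chrM:8607-9390), a structural core subunit, ran from 17.7 to 29.1 CPM in untreated and from 13.98 to 36.4 CPM in LPS libraries. The log2 fold changes were 0.07 ± 0.26 for mt-Co2 and -0.04 ± 0.24 for mt-Co3, and their signs were not stable to leaving out single libraries.

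The ATP synthase draws its proton-channel subunit from mt-Atp6 and a small stabilising subunit from mt-Atp8. mt-Atp6 (chrM:7927-8607) ran from 14.3 to 23.6 CPM in untreated and from 10.2 to 28.7 CPM in LPS libraries, with a log2 fold change of 0.04 ± 0.23. mt-Atp8 (chrM:7766-7969) had only 56 counts over the 10 libraries and was not tested. It stood at 0.268, 0.121, 0.0853, 0.387 and 0.367 CPM in untreated and at 0.0477, 0.0730, 0.290, 0.217 and 0.537 CPM in LPS libraries. These values stand for 1 to 13 counts each, which cannot show a difference between the groups. mt-Atp8 had no window in another annotated transcript. The chromosome 1 copies of mt-Atp6 and mt-Co2, genes on either side of mt-Atp8, end at 24614651 and start at 24614885 (GRCm38). Only annotated transcripts were searched, so the sequence between those copies was not covered. mt-Atp8 is printed for its overlap with mt-Atp6. Capitals mark the 43 bases it shares with mt-Atp6, where a read cannot be given to either gene alone.
mt-Atp8: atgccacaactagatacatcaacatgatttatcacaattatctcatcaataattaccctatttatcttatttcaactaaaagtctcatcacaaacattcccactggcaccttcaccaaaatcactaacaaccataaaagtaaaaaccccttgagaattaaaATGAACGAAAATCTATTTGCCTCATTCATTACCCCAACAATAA

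Per length, mitochondrial genes fell into a high and a low set. Mean levels per kilobase were 7083 CPM for mt-Co1, 3285 for mt-Cytb, 2046 for mt-Nd5, 1968 for mt-Nd1, 1233 for mt-Nd2 and 870 for mt-Nd4. Those of mt-Co2, mt-Co3 and mt-Atp6 were 30.2, 29.7 and 26.2 CPM per kilobase, those of mt-Nd4l and mt-Nd6 were 11.1 and 10.0, and those of mt-Nd3 and mt-Atp8 were 1.39 and 1.17. Thus mt-Co1 exceeded mt-Co2, its partner in complex IV, 234-fold per kilobase, and mt-Nd4 exceeded mt-Nd4l, with which it shares a bicistronic mRNA, 78.5-fold. The ribosomal RNAs lay between the sets, at 153 CPM per kilobase for mt-Rnr2 and 109 for mt-Rnr1, and mt-Nd1 exceeded mt-Rnr2 12.8-fold.

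**Figure D3:**
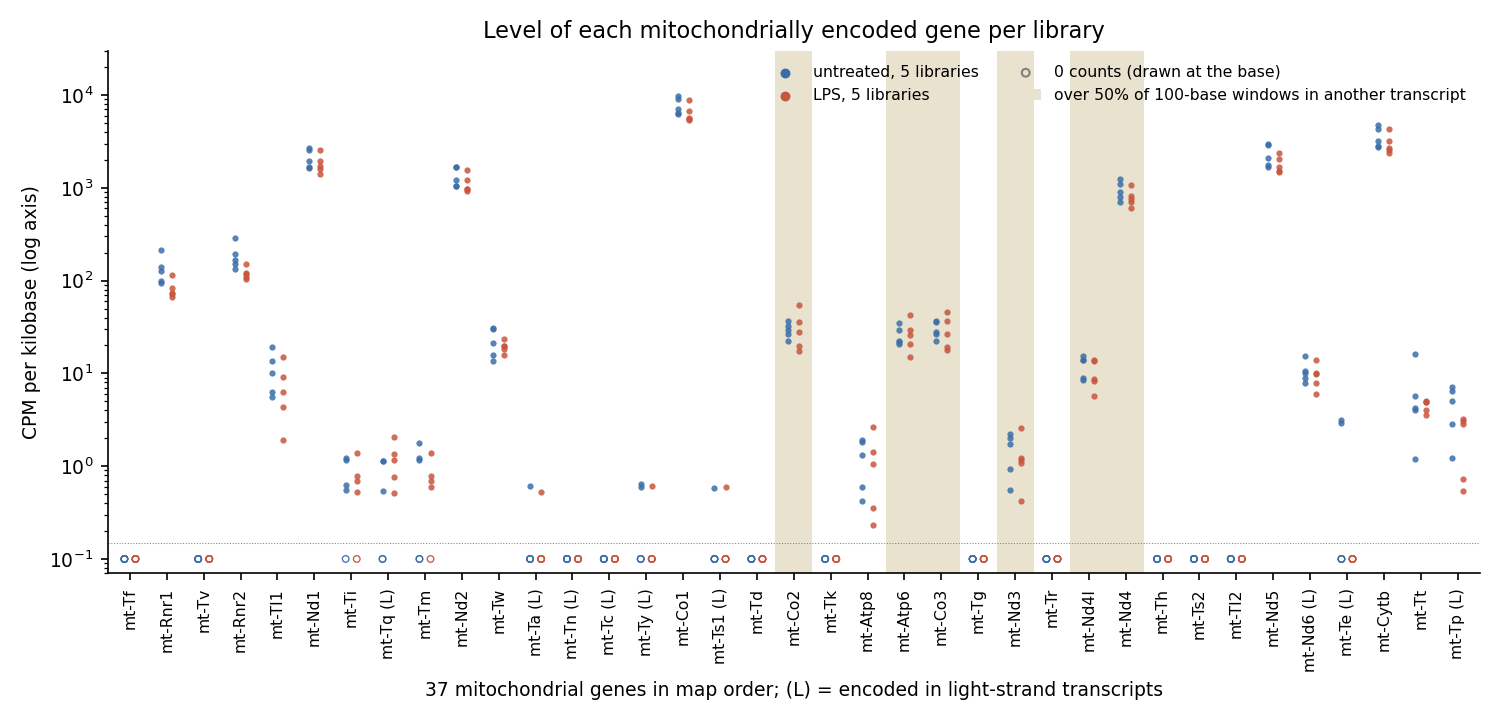
CPM per kilobase (log axis) of the 37 mitochondrial genes in map order, with 1 point per library. Open circles at the base stand for libraries with 0 counts, and shading marks genes with more than 50% of their 100-base windows in another transcript. The shaded genes other than mt-Nd4 lie between 1.39 and 30.2 CPM per kilobase on average, while mt-Nd6 (10.0) and mt-Atp8 (1.17) are low without shading.

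Low levels went with sequence shared with annotated nuclear transcripts in 5 genes and without it in 2. mt-Co2, mt-Atp6, mt-Co3, mt-Nd3 and mt-Nd4l were both low and almost wholly shared with nuclear transcripts. mt-Nd6 and mt-Atp8 were low with no window shared with an annotated transcript. mt-Atp8 lies between mt-Co2 and mt-Atp6, whose copies sit in the chromosome 1 block, and nuclear sequence outside annotated transcripts was not searched. mt-Nd4, shared over 60.8% of its windows, was at 870 CPM per kilobase. The part of read assignment in these levels was not tested.

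The transfer RNA genes deliver amino acids to the mitochondrial ribosome and also mark the cutting sites of the precursors. They are 59 to 75 bases long, 8 of 22 are read from the light-strand precursor, and 14 of 22 directly abut or overlap a neighbouring gene. All 22 together held 683 counts in the 10 libraries. mt-Tw, for tryptophan, had 328 counts and mt-Tl1, one of the leucine transfer RNAs, had 165, together 72.2% of the total. mt-Tt, for threonine, followed with 84 counts and mt-Tp, for proline, with 52. A further 7 had 1 to 20 counts, and 11 had 0 counts in every library. The sequences of the 2 best counted and of mt-Tk, for lysine, one of those at 0, are shown because genes with and without counts have like lengths (67, 75 and 65 bases). mt-Tk lies between mt-Co2 and mt-Atp8, where nuclear sequence outside annotated transcripts was not searched. Capitals mark the 2 bases of mt-Tw that overlap mt-Nd2.
mt-Tw: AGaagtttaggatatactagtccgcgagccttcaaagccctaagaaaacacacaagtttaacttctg
mt-Tl1: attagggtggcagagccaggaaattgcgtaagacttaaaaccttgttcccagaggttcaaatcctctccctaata
mt-Tk: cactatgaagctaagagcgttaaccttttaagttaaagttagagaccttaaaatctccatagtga

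mt-Tw stood at 0.918, 2.02, 1.07, 1.42 and 2.08 CPM in untreated and at 1.34, 1.31, 1.06, 1.57 and 1.24 CPM in LPS libraries. The LPS values lay within the untreated range, and the log2 fold change was -0.21 ± 0.26 (edgeR adjusted p = 0.782). mt-Tl1, which joins the end of mt-Rnr2 to the start of mt-Nd1, ran from 0.421 to 1.43 CPM in untreated and from 0.145 to 1.11 CPM in LPS libraries (log2 fold change -0.54 ± 0.48, edgeR adjusted p = 0.666). Because transfer RNA genes abut their neighbours, counts on them can come from uncut precursors or from reads that run over from the next gene, and which of these was counted was not tested. mt-Tt had 50 untreated and 34 LPS counts, mt-Tp had 37 and 15, and neither passed the low-count filter.

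Spread between libraries was large for mitochondrial genes. In the 8 with a mean of at least 50 CPM, the coefficient of variation was 20.9% to 35.8% in untreated and 15.8% to 25.4% in LPS libraries. Over the 4316 genes at that level, its median was 7.46% in untreated and 8.68% in LPS libraries. Of those genes, 3.17% in untreated and 13.8% in LPS libraries had a coefficient at or above the lowest of the 8 mitochondrial genes. Libraries 4 and 5 in the untreated group and library 10 in the LPS group carried the highest levels of all 8. Reads that aligned to more than 1 place were 5.89%, 6.10% and 6.02% of all reads in those 3 libraries. They were 6.02% in LPS 8, where mitochondrial genes were not high, and 4.89% to 5.30% in the other 6 libraries. The part of these reads in the spread was not tested.

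The members of that abundant set moved together from library to library. Over the 10 libraries, the 15 pairs among the 6 abundant mRNAs had Pearson correlations of log2 CPM of 0.941 to 0.991. The 12 pairs of a ribosomal RNA with an mRNA had correlations of 0.724 to 0.815. The pairs share libraries and depth, so these values are descriptions. mt-Co1 kept 45.2% to 48.8% of the mitochondrial counts in every library, with means of 47.3 ± 1.35% in untreated and 47.2 ± 0.800% with LPS (SD, n = 5 each). The share of mt-Rnr1 was 0.508 ± 0.120% and 0.373 ± 0.0227%, that of mt-Rnr2 1.16 ± 0.233% and 0.919 ± 0.109%, and both overlapped between the groups.

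Ratios within a library do not depend on its total, and 7 were tested with the exact permutation test (two-sided, 5 against 5 libraries), whose smallest p is 0.00794. The ratio of mt-Co1 to mt-Rnr2 counts, an mRNA against the large ribosomal RNA, was 37.1, 41.5, 51.6, 30.99 and 49.6 in untreated and 44.2, 53.1, 49.5, 56.4 and 56.2 in LPS libraries. It was 42.2 ± 8.58 and 51.9 ± 5.13 on average (SD, n = 5 each), higher in 3 of 5 LPS libraries than in any untreated one, and did not pass (exact p = 0.0714, Benjamini-Hochberg adjusted over the 7 ratios 0.500). mt-Rnr1 to mt-Rnr2 gave exact p = 0.151, mt-Co1 to mt-Nd1 gave exact p = 0.214, and mt-Cytb to mt-Nd1, the last against the first heavy-strand mRNA, gave exact p = 0.302. The ratios of mt-Nd6 to mt-Nd5, mt-Atp8 to mt-Atp6 and mt-Nd4l to mt-Nd4 gave exact p-values of 0.627, 0.595 and 0.857. None of the 7 ratios passed the test. Given the smallest p, a ratio could not pass on its own after adjustment over the 7, even with fully separated groups. The outcome therefore does not show that the ratios were alike.

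mt-Rnr2 was set against 3 genes over the 10 libraries, with permutation p-values from 100000 resamples adjusted over the 3 relations. With mt-Rnr1 it had r = 0.986 and Spearman rho = 0.988 (permutation p = 1e-05 for both, the smallest these permutations can give, adjusted 3e-05), and r = 0.974 within groups (permutation p = 0.00024, adjusted 0.00072). With mt-Co1 it had r = 0.775 (permutation p = 0.00593, adjusted 0.00593) and rho = 0.721 (permutation p = 0.0227, adjusted 0.0340), and r = 0.722 within groups (permutation p = 0.0217, adjusted 0.0325). Leaving out untreated 4 and 5, the 2 libraries farthest from the median of mt-Rnr2, gave r = 0.966 with mt-Rnr1 and r = 0.582 with mt-Co1. The first relation thus held without those libraries and the second became weaker.

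Lars2, the nuclear gene of the mitochondrial leucyl-tRNA synthetase, which charges the leucine transfer RNAs, was the third. It had r = 0.836 with mt-Rnr2 (permutation p = 0.00275, adjusted 0.00412) and rho = 0.661 (permutation p = 0.0434, adjusted 0.0434). Within groups r was 0.656 (permutation p = 0.0991, adjusted 0.0991), so the relation did not pass there, and without untreated 4 and 5 it was 0.624. The pooled relation rests in part on the difference between the groups and on those libraries.

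**Figure D4:**
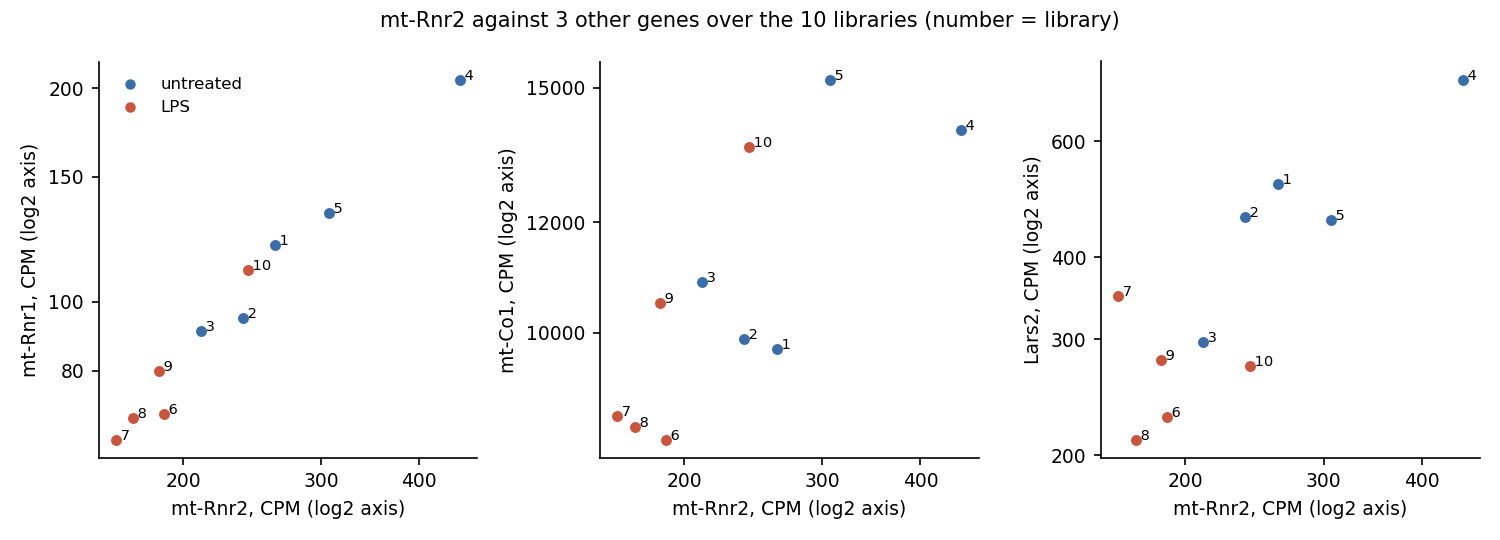
CPM of mt-Rnr1, mt-Co1 and Lars2 (vertical axes) against CPM of mt-Rnr2 (horizontal axes) in the 10 libraries, all on log2 axes, with points numbered by library. mt-Rnr1 follows mt-Rnr2 closely (r = 0.986), while mt-Co1 (r = 0.775) and Lars2 (r = 0.836) scatter more, and library 4 stands at the upper right of the mt-Rnr1 and Lars2 panels.

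Lars2 fell with LPS. It stood at 517, 461, 297, 744 and 455 CPM in untreated and at 229, 349, 211, 279 and 273 CPM in LPS libraries. LPS 7 exceeded untreated 3, and the other 4 LPS libraries were below all untreated ones. The log2 fold change was -0.89 ± 0.20 (edgeR adjusted p = 0.0229), against 0.928% of all genes tested that were called lower. The call was lost without LPS 8 (adjusted p = 0.0520) or LPS 9 (0.0581). Lars2 was listed with nuclear genes that share sequence with the large mitochondrial ribosomal RNA, but its transcripts gave no match to any mitochondrial gene in the GRCm38 set at an E-value of 0.001. ENSMUSG00000119584, a gene without a symbol in GENCODE M21 and singled out after its values were seen, was also highest in untreated 4. It stood at 6709, 5776, 3657, 9418 and 5492 CPM in untreated and at 2934, 4275, 2272, 3349 and 3189 CPM in LPS libraries. These values rank the libraries in the same order as Lars2 does. The means were 6210 ± 2107 CPM in untreated and 3204 ± 726 CPM with LPS (SD, n = 5 each). What Lars2 and this gene share was not tested.

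Counts on the nuclear copies were compared with those on the genes they copy. In the 9 libraries other than LPS 8, the 9 listed pseudogene copies summed to 142 to 294 CPM. In LPS 8 they summed to 22.3 CPM, and each of the 9 was lowest there. Gm13340, the chromosome 2 copy of mt-Co1, was at 6.23 CPM in LPS 8 and at 54.6 to 100.3 CPM elsewhere. Processed pseudogenes as a class were also lowest in LPS 8, at 2025 CPM against 2430 to 3063 CPM in the other libraries. The 8 most abundant mitochondrial genes lay within the range of the other LPS libraries in LPS 8, where mt-Co1 was at 8550 CPM. Among the low ones, mt-Nd4l (1.69 CPM), mt-Nd3 and mt-Tl1 (0.145 CPM and 3 counts each) were lowest there of all libraries. Leaving out LPS 8 left no mitochondrial gene called, with log2 fold changes of -0.68 for mt-Rnr1 and -0.60 for mt-Rnr2 (edgeR adjusted p = 0.158 and 0.140).

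**Figure D5:**
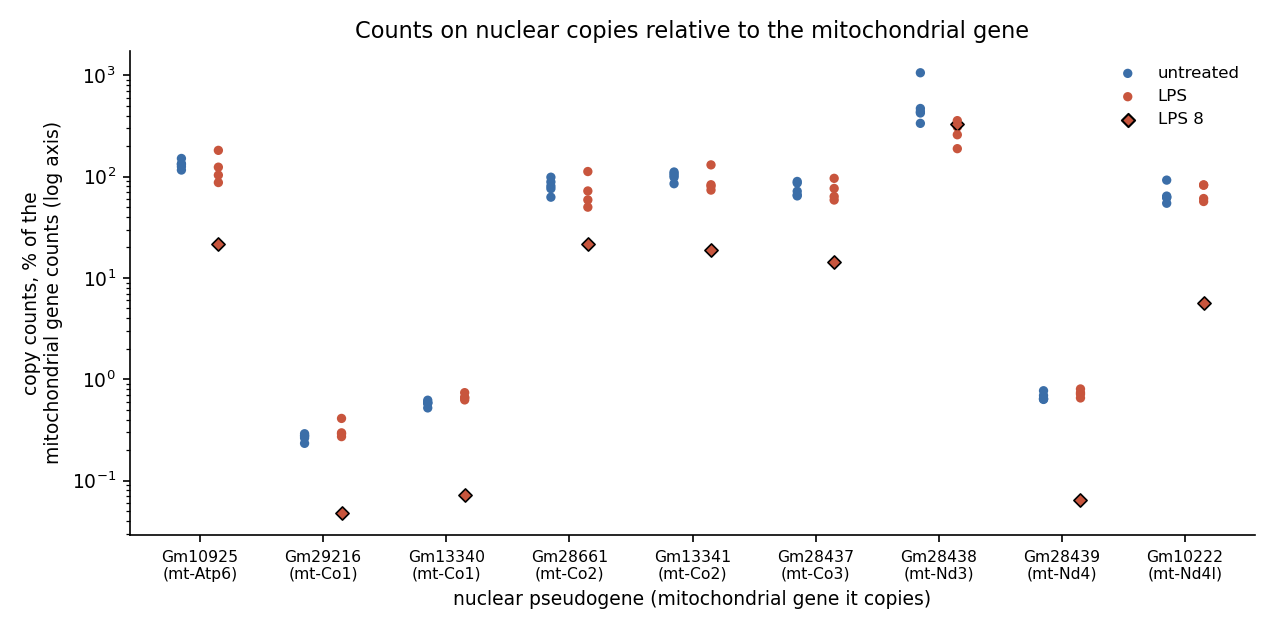
Counts on 9 nuclear pseudogenes as a percentage of the counts on the mitochondrial gene they copy (log axis), per library, with LPS 8 drawn as diamonds. LPS 8 lies below all other libraries for every pseudogene except Gm28438, the copy of mt-Nd3, and the copies of mt-Co1 and mt-Nd4 stay below 1% of the gene in all libraries.

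Relative to the gene they copy, the pseudogenes fell into 2 ranges. In the 9 libraries other than LPS 8, Gm10925 had 87.5% to 182% of the counts of mt-Atp6, Gm28661 had 50.0% to 112% of those of mt-Co2 and Gm28437 had 58.8% to 96.2% of those of mt-Co3. Gm28438 had 189% to 1060% of the counts of mt-Nd3, so that the copy held more counts than the gene. By contrast Gm28439 had 0.633% to 0.803% of the counts of mt-Nd4, and Gm13340 had 0.522% to 0.738% of those of mt-Co1. Adding the copies to their genes, an alternative chosen after seeing the data, turned mt-Co2 to a log2 fold change of -0.15 and mt-Atp6 to -0.16, and called no mitochondrial gene. It took mt-Nd3 to -0.77 (edgeR adjusted p = 0.342). These fits include LPS 8. With the copies added and LPS 8 left out, likewise chosen after seeing the data, mt-Co2 was at 0.06, mt-Atp6 at 0.02 and mt-Nd3 at -0.57, and no mitochondrial gene was called. The turn in sign of mt-Co2 and mt-Atp6 was thus absent without that library. Whether reads on the copies were transcribed from the nucleus or the mitochondrion cannot be told apart where the sequences are the same.

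Nuclear genes that serve the mitochondrial genome were read from the same fit by lists. Of 21 genes of mitochondrial DNA transcription and replication, edgeR, DESeq2 and limma-voom called 0, against 3.77%, 6.12% and 3.64% of all genes tested. For a list this short, 0 calls lies near those shares. None had an unadjusted p under 0.05 (edgeR), against 15.3% of all genes tested, and the median log2 fold change was 0.02. Polrmt, the mitochondrial RNA polymerase, was at 29.3 ± 2.93 CPM in untreated and 30.6 ± 1.90 CPM with LPS (SD, n = 5 each). Tfam, which packages the genome and starts transcription, was at 24.8 ± 2.46 and 25.7 ± 1.49 CPM, and Tfb2m, the promoter-melting factor, at 11.01 ± 1.43 and 10.2 ± 1.72 CPM. These 3 differed by less than the spread between libraries. Polg, the DNA polymerase of mitochondria, Tk2, a nucleoside kinase, and Cmpk2, a nucleotide kinase, had log2 fold changes of -0.06, 0.03 and 0.13.

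Of 37 genes of mitochondrial RNA processing and decay, none was called by edgeR, DESeq2 or limma-voom, against 3.77%, 6.12% and 3.64% of all genes tested. In edgeR 5 had an unadjusted p under 0.05 (13.5% against 15.3% of all genes tested). The median log2 fold change of the list was 0.00. Lrpprc, which stabilises mitochondrial mRNAs, was at 120 ± 5.24 and 121 ± 6.31 CPM, and its log2 fold change of 0.00 changed sign with the scaling. Pnpt1, an RNA-degrading enzyme of mitochondria, was at 25.6 ± 1.48 and 28.7 ± 1.67 CPM (log2 fold change 0.16 ± 0.07, edgeR adjusted p = 0.281). Grsf1, an RNA granule protein, was at 111 ± 6.66 and 106 ± 8.49 CPM.

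Translation and respiratory chain genes were read beside the shares over all genes tested: 15.3% at an unadjusted p under 0.05, and calls of 3.77% by edgeR, 6.12% by DESeq2 and 3.64% by limma-voom. Of 77 tested genes of mitochondrial ribosomal proteins, edgeR called none (11 at an unadjusted p under 0.05, or 14.3%), DESeq2 called 3 and limma-voom called 0, with a median of 0.08. The most abundant were Mrpl24 and Mrpl10, with log2 fold changes of 0.10 and 0.05. Of 14 translation factors none was called by the 3 tools, and none had an unadjusted p under 0.05 in edgeR, with Gfm2 at 0.02 and Gfm1 at -0.05. Of 19 mitochondrial tRNA synthetases, edgeR called 1 lower, Lars2, and none higher, against 0.928% and 2.84% of all genes tested. DESeq2 and limma-voom each called 1, and 2 had an unadjusted p under 0.05 in edgeR, or 10.5%. Without LPS 8, edgeR called 0. Of 75 nuclear subunits of the respiratory chain and ATP synthase, none was called by the 3 tools (10 at an unadjusted p under 0.05 in edgeR, or 13.3%), with a median of 0.09. Atp5b and Atp5a1, the catalytic core subunits of the ATP synthase, were at 515 ± 10.3 and 470 ± 18.5 CPM in untreated and at 532 ± 6.64 and 466 ± 20.6 CPM in LPS libraries.

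Of 11 genes of mitochondrial quality control none was called by edgeR, DESeq2 or limma-voom, against 3.77%, 6.12% and 3.64% of all genes tested. In edgeR 1 had an unadjusted p under 0.05 (9.09%, against 15.3% of all genes tested). That gene was Lonp1, the matrix protease, at 282 ± 25.6 CPM in untreated and 327 ± 13.1 CPM in LPS libraries (log2 fold change 0.21 ± 0.07, edgeR adjusted p = 0.153). Without untreated 5 it was called (adjusted p = 0.0360). Hspa9, the matrix chaperone, was at 529 ± 24.9 and 567 ± 44.3 CPM. A list of 11 nuclear copies of mitochondrial sequence included Lars2 and Gm15564, which matched no mitochondrial gene in the transcripts searched. Of the 11, edgeR called 1 lower, Lars2, and none higher, against 0.928% and 2.84% of all genes tested. At an unadjusted p under 0.05 there were 3 (27.3%), against 15.3% of all genes tested. DESeq2 called 2 and limma-voom 1, against 6.12% and 3.64%. All 11 had fitted values below 0, against 52.1% of all genes tested, with a median of -0.30. The size of these values rested largely on LPS 8. Without it, 9 of 11 were still below 0, against 52.8% of all genes, but the median was -0.03 and edgeR called 0.

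Markers of islet cell types also moved. Of the beta cell markers, the glucose transporter gene Slc2a2 fell (log2 fold change -0.86 ± 0.08, edgeR adjusted p = 4.3e-05), and so did the maturity marker Ucn3 (-0.64 ± 0.10, adjusted p = 0.00143). Ppy, the hormone of pancreatic polypeptide cells, was lower (-0.99 ± 0.25, edgeR adjusted p = 0.0473), and so was Kdr, an endothelial receptor (-3.12 ± 0.80, edgeR adjusted p = 0.0473). Cd68, a macrophage marker, was higher in LPS libraries (0.68 ± 0.14, edgeR adjusted p = 0.0141). Groups overlapped for Ppy, Kdr and Cd68. Kdr stood at 0.0765 to 6.79 CPM in untreated and 0 to 0.730 CPM in LPS libraries. No endothelial marker was called by limma-voom, or by edgeR without LPS 8. The summed level of the 4 endothelial markers was 1.07 to 16.6 CPM in untreated and 1.15 to 3.43 CPM in LPS libraries. That of the 5 macrophage markers was 14.04 to 20.2 and 19.9 to 32.5 CPM. Nearly all of the macrophage sum was Cd68, at 13.9 to 19.8 and 19.8 to 32.2 CPM. Only 1 of those 5 markers, Cd68, had enough counts to be tested. The part of other cell types in the mitochondrial values was not tested.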

How the data were processed

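RNA-seq gene counts of sorted beta cells were analysed from 5 untreated and 5 LPS libraries, grouped and numbered by their titles. The values are the raw read counts per Ensembl gene identifier that the authors deposited, 1 table per library. The submitters' processing notes name the mouse build GRCm39 and, with no version or role, STAR, HTSeq, SAMtools, Trimmomatic, FastQC and DESeq2. Annotation release, strand use, library kit and read length were not given in the sources used here. Table rows that name no gene entered neither library sizes nor tests: reads outside genes were 8.84% to 12.9% and reads aligned to more than 1 place 4.89% to 6.10% of all reads. Symbols matched 52073 of 56748 identifiers in GENCODE M21.

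Counts were tested with edgeR 4.0.16 in R 4.3.3 (filterByExpr with minimum count 10 and minimum total count 15, TMM scaling, quasi-likelihood F test, Benjamini-Hochberg adjustment over 15942 genes, calls at an adjusted p under 0.05). On simulated counts with 200 genes changed 2-fold, 71.5% were recovered with 7 false calls. p-values measure the spread between these samples, whose animals are not named. Sequence matches were found with BLAST 2.17.0 (E-value limit 0.001, copies of at least 100 bases at 90% identity). DESeq2 1.42.0, limma-voom (limma 3.58.1), other scalings and filters and leaving out each library were alternatives. Named genes were all protein and ribosomal RNA genes, the 4 transfer RNA genes with the highest mean CPM, up to 4 called genes or else the 2 most abundant of each nuclear list, and 7 nuclear genes by name (Polrmt, Tfam, Tfb2m, Lrpprc, Pnpt1, Cmpk2 and Lars2). The members and lists were chosen with earlier results of these data known.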

Additional observations from a re-analysis of the deposited data

Results flagged for a closer look

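Over 116 groups of 5 libraries, 5 held a library far from the other 4 by Dixon's criterion, where chance gives about 1 in 20 groups. Gm28438 had 1060% of the counts of mt-Nd3 in untreated 1, the highest of the untreated libraries, which rests on 53 counts of the copy and 5 of the gene. Gm10222 had 92.4% of the counts of mt-Nd4l in untreated 1, again the highest of its group. In LPS 8, Gm13340 had 0.0729% of the counts of mt-Co1 and Gm28439 had 0.0643% of those of mt-Nd4, both the lowest of the LPS libraries. Grsf1 was highest in LPS 6 among the LPS libraries, at 121 CPM.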

How the results depend on the processing

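No paired analysis was possible because the 2 groups share no replicate number. Other edgeR scalings, a filter at 1 CPM in 5 libraries and limma-voom left 0 mitochondrial genes called. Without the low-count filter edgeR called 2, and DESeq2 called 1 mitochondrial gene and 976 genes in all, 322 of them lower. Leaving out each library in turn gave 0 to 2 mitochondrial genes, 401 to 624 genes in all, 324 to 458 higher and 75 to 166 lower. The genes called lower were fewest without untreated 2 (75), LPS 9 (76), untreated 3 (77) or untreated 4 (89). The difference in mitochondrial share, -0.427 percentage points, was -0.319 with all reads as the total and ran from -0.620 to -0.255 when single libraries were left out, the last without untreated 5.

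Of the values recomputed for single genes under an alternative, 670 kept their direction and side of the threshold and 32 changed sign. With limma-voom the log2 fold change of mt-Co2 was -0.0238 and that of mt-Atp6 -0.00492, and with the nuclear copies added they were -0.15 and -0.16. With the copies added and LPS 8 left out, also chosen after seeing the data, they were 0.06 and 0.02, and mt-Co3 was at 0.0478. Leaving out single libraries gave ranges of -0.24 to 0.20 for mt-Co2, -0.20 to 0.17 for mt-Atp6, -0.27 to 0.0878 for mt-Co3, -0.59 to 0.0529 for mt-Nd3 and -0.33 to 0.0209 for mt-Nd6. In the same way Tk2 ran from -0.0481 to 0.12, Lrpprc from -0.0311 to 0.0233, Gfm2 from -0.0107 to 0.0620, Atp5a1 from -0.0464 to 0.00433 and Tfam from -0.0138 to 0.0842. Lrpprc was at -0.00903 with upper-quartile factors and -0.00332 with the filter at 1 CPM. The log2 ratio difference ran from -0.17 to 0.12 for mt-Nd4l to mt-Nd4 and from -0.0381 to 0.24 for mt-Nd6 to mt-Nd5. The cause was not tested. Depth limits mt-Atp8, mt-Nd3 and the transfer RNA genes, for which most libraries held few counts.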
